A study of Mus musculus with 2 samples.

Results

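The complement genes described here are 9 genes of the innate immune cascade that coats microbes and dead cells: C1qa, C1qb, C1qc, C2, C3, C4b, Cfb, Cfd and Cfp. They were taken by symbol from the 32285 genes of a single-cell matrix of mouse skin, and all 9 were found. The choice of these genes, and of the classes of cells across which they are described, was made with their levels in these cells known, so that the levels below are a description and carry no test. The samples were dorsal skin of wild-type (WT) male mice aged 9 or 108 weeks, with cells of 2 mice pooled into 1 library per age and sorted as F4/80+ and MHCII-hi, a gate meant for macrophages. Both libraries lie in 1 matrix, and no source used here says which barcode suffix belongs to which age. They are called library 1 and library 2, and no comparison of ages was made. Nothing distinguishes individual mice within a pool.

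Complement acts as a chain of proteins that activate each other. In the classical pathway C1q, built of A, B and C chains from separate genes, binds antibody or cell surfaces and switches on the proteases C1r and C1s, which cleave C4 and C2. In the alternative pathway factor D (Cfd) cleaves factor B (Cfb), and properdin (Cfp) stabilizes the resulting enzyme. Both routes end in the cleavage of C3, which marks surfaces for uptake and leads on to the lytic complex. The liver makes most circulating complement, whereas tissue macrophages are known as a main source of C1q and adipocytes of factor D.

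After removal of barcodes with few genes, few UMIs (distinct RNA molecules) or a high mitochondrial share, 3797 of 5257 barcodes remained, 2396 of library 1 and 1401 of library 2, with a median of 10870 UMIs. Clusters were named from fixed marker lists that hold no member. The macrophage-like class held 1262 cells, the dendritic-like class 540, the fibroblast-like class 824, the endothelial-like class 352 and the Schwann-like class 125. All 10 macrophage markers, 9 of 11 dendritic markers and all 8 markers of each of the other lists stood at 20 CPM (counts per 1000000 UMIs of a class) or more in their own class. Markers of other lists reached that level too. In dendritic-like cells 7 of 10 macrophage markers did, and the list summed to 2137 CPM, beside 1975 for the dendritic list. In macrophage-like cells the macrophage list summed to 7006 CPM. In endothelial-like cells 7 of 10 macrophage markers reached it, and in Schwann-like cells 6 of 8 fibroblast markers. Together the classes summed 40984571 UMIs, from 886313 in Schwann-like to 14258633 in macrophage-like cells. Fibroblast-like, endothelial-like and Schwann-like cells were present although the gate was set for F4/80 and MHC class II, and Adgre1, the gene of F4/80, stood at 471 CPM in macrophage-like and 4.16 in fibroblast-like cells. Doublets were not removed from the main analysis. The caller marked 6 of the kept cells, and 1 barcode sequence occurred in both libraries. Values are CPM of summed UMIs with 95% intervals that cover counting error only, and since 3' UMIs are not scaled to transcript length they are compared between cells and not between genes.

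The C1q genes lie side by side on chromosome 4 (GRCm38, all on the minus strand). C1qb spans 136880129 to 136886187, C1qc 136889804 to 136893065 and C1qa 136895917 to 136898803, with gaps of 3616 and 2851 bases. Cfb (34856374 to 34862518), C2 (34862604 to 34898265) and C4b (34728380 to 34743882) share a stretch of chromosome 17, where 85 bases separate Cfb from C2. C3 lies elsewhere on chromosome 17 (57203970 to 57228136), Cfd on chromosome 10 (79890853 to 79892655) and Cfp on chromosome X (20925454 to 20931555). C2 and Cfb share bases with the annotated gene Gm20547, which is not a row of the matrix, and C2 overlaps Zbtb12 on the other strand, which had 107 UMIs in all barcodes. C4b has the near-identical copy C4a, so that reads of the pair can be hard to assign. The matrix held 8411 UMIs of C4b and 30 of C4a.

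The 250 bases before the RefSeq start of C1qb, C1qc and C3 are shown because C1qb and C1qc were high in the same clusters, whereas C3 was highest in others. RefSeq promoters of 5 of the 9 members were matched by symbol (GRCm38.p6), those of C1qb, C1qc, C3, Cfd and Cfp, and the entries of C1qa, C2, C4b and Cfb were not matched. Both strands were searched for GAGGAA, a core bound by ETS factors such as PU.1, for TGANTCA, the AP-1 motif, and for TTGCNNAA, a core of the C/EBP motif, and matches are in capitals. The C1qb window is chr4:136886201-136886450, the C1qc window chr4:136892915-136893164 and the C3 window chr17:57228137-57228386, each read 5′ to 3′ on the minus strand. For C3 that start is the end of the gene given above, while for C1qb it lies 13 bases before the gene. For C1qc it lies 151 bases inside the gene, so that 151 bases of its window belong to the annotated gene.
C1qb: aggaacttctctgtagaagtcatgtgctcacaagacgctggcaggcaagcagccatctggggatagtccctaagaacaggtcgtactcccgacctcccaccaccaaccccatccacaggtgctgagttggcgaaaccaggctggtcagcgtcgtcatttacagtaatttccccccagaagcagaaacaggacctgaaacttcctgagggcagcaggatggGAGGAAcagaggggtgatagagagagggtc
C1qc: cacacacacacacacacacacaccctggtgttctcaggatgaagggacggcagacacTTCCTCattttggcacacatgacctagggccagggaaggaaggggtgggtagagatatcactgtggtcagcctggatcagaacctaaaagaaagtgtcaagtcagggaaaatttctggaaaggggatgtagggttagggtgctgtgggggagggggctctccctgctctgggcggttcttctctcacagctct
C3: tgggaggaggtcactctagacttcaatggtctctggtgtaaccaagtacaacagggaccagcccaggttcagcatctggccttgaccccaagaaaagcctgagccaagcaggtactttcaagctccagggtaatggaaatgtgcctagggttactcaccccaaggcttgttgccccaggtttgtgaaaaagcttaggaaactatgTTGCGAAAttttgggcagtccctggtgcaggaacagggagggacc
C1qb held GAGGAA with its first base 30 bases before the RefSeq start, and C1qc held it on the opposite strand, 193 bases before that start. C3 held TTGCNNAA at 45 bases before the start. Of 32851 promoter windows of this length, 23.3% held GAGGAA, 9.56% held TTGCNNAA and 6.75% held TGANTCA, and none of the windows of the 5 members held the last. The windows of Cfd and Cfp held no match to any of the motifs.

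C1qa, C1qb and C1qc, the chains of the molecule that starts the classical pathway, were genes of the macrophage-like cells. C1qa stood at 2053 CPM there (2030.0 to 2077), against 106 in endothelial-like, 55.8 in dendritic-like, 20.3 in Schwann-like and 12.3 in fibroblast-like cells. C1qb stood at 2151 CPM in macrophage-like cells and C1qc at 1429, which is 17.3-fold and 18.9-fold above endothelial-like cells, the next class for each, while the fold for C1qa was 19.3. Macrophage-like cells led all 3 chains in each library, but the fold depended on it. For C1qa it was 11.9 over endothelial-like cells in library 1 and 40.5 over dendritic-like cells, the next class there, in library 2. For C1qb and C1qc the folds over endothelial-like cells were 12.0 and 11.2 in library 1 and 33.0 and 68.7 in library 2. C1qa measured 1993 CPM in macrophage-like cells of library 1 and 2232 in those of library 2, C1qb 2019 and 2543, and C1qc 1398 and 1519.

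**Figure D1:**
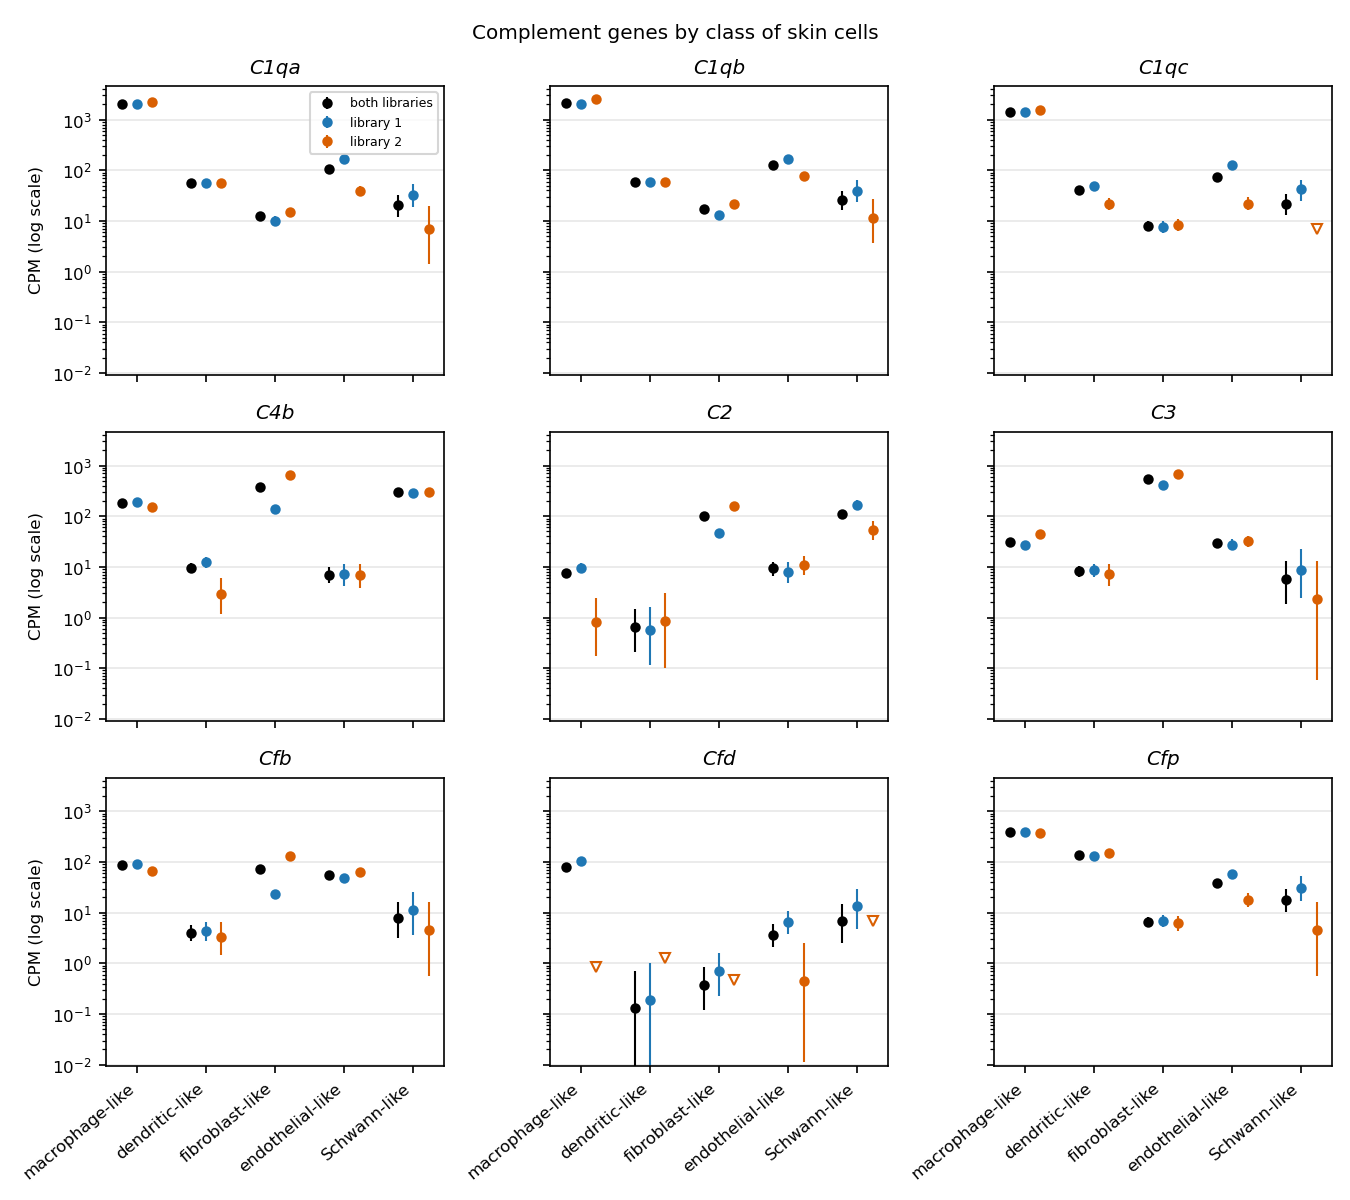
Level of each complement gene in CPM (log scale) by class, for both libraries together (black), library 1 (blue) and library 2 (orange), with 95% counting intervals. Open triangles mark the limit of 3 counts where a library had no UMI. The C1q genes stand above 1000 only in macrophage-like cells, C3 is highest in fibroblast-like cells, and the Cfd point of macrophage-like cells comes almost wholly from 1 barcode.

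A gene was counted as led by a class where its CPM there was at least 4 times that in each of the other 4 classes. By this rule macrophage-like cells led 4 of the 9 members, C1qa, C1qb, C1qc and Cfd, beside 1.27% of the 11371 genes with at least 100 UMIs over the classes. Fibroblast-like cells led 1 member, C3, beside 3.34% of all genes. Dendritic-like cells led none beside 0.835%, endothelial-like cells none beside 2.88% and Schwann-like cells none beside 2.34%. These counts used the levels by which the members were chosen, and nothing is read from the shares. The Cfd count rests on 1 barcode, described further on, without which macrophage-like cells led 3 members.

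The C1q chains occurred in the same cells. With each cell thinned to 2000 UMIs, 876 of 1206 macrophage-like cells (72.6%) held a UMI of all 3 chains and 173 (14.3%) held none. Without thinning, C1qa was found in 84.6% of macrophage-like cells, C1qb in 87.7% and C1qc in 85.3%. Among dendritic-like cells 7 of 530 held all 3 chains, among fibroblast-like cells 1 of 778, among endothelial-like cells 11 of 326 and among Schwann-like cells 1 of 112. Keratinocyte-like cells, which should lack C1q, held after thinning a UMI of C1qb in 2 of 66 cells and none of C1qa or C1qc, which allows a share of up to 4.55% of cells with a UMI at that depth. Without thinning the shares there were 11.8% for C1qa, 19.1% for C1qb and 13.2% for C1qc. The median depth before thinning was 9786 UMIs in macrophage-like and 22854.5 in keratinocyte-like cells.

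**Figure D2:**
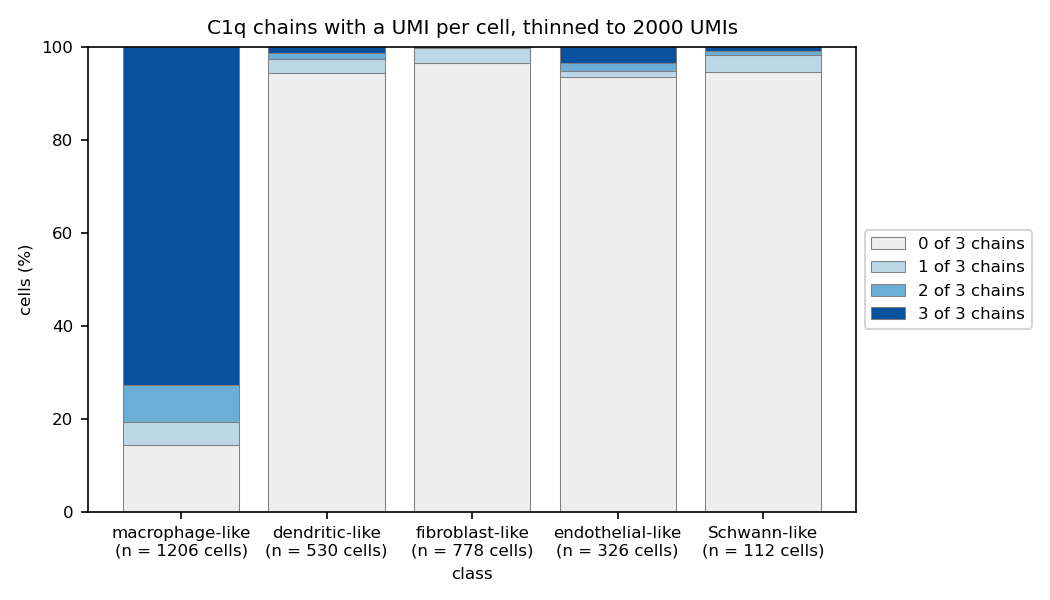
Percentage of cells (vertical axis) of each class with a UMI of 0, 1, 2 or 3 of the C1q chains after thinning to 2000 UMIs per cell, with the number of cells under each bar. All 3 chains were found in 72.6% of macrophage-like cells and in 3.37% of endothelial-like cells, the next highest share.

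With the libraries pooled, the chains stood in a like ratio in most classes. C1qa, C1qb and C1qc made up 36.5%, 38.2% and 25.4% of the C1q UMIs in macrophage-like cells, 35.9%, 38.0% and 26.1% in dendritic-like cells, and 34.7%, 40.7% and 24.6% in endothelial-like cells. The fibroblast-like cells, with 504 C1q UMIs, gave 32.9%, 45.4% and 21.6%. The ratio was less even within library 2, where the 307 C1q UMIs of endothelial-like cells split into 28.3%, 55.7% and 16.0%. Outside the macrophage-like class the C1q UMIs sat in few cells. In endothelial-like cells 10 of 352 cells held 73.9% of the C1qa UMIs, and in dendritic-like cells 10 of 540 held 81.1%, whereas 10 of 1262 macrophage-like cells held 4.20%.

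Macrophage markers moved with C1q in these cells. The 16 endothelial-like cells with 10 or more C1q UMIs held macrophage markers at 4293 CPM and had a median doublet score of 0.230, against 216 CPM and 0.0217 in the 297 without C1q. Fibroblast-like cells gave the same picture, with marker levels of 2895 CPM in the 4 cells with 10 or more C1q UMIs and 125 CPM in 697 without. Among dendritic-like cells the levels were 3526 CPM in 15 cells and 2042 in 418. Cells with 10 or more C1q UMIs were also deeper than those without. Their median depth was 21918 UMIs against 8600 in endothelial-like, 21569 against 12205 in fibroblast-like and 22661 against 13774 in dendritic-like cells. Within macrophage-like cells the markers stood at 7707 CPM in 1013 such cells and 3727 in the 127 without C1q. Of the 16 endothelial-like cells, 13 belonged to library 1, and C1qa stood at 168 CPM in endothelial-like cells of library 1 and 39.2 in those of library 2. Over the classes, C1q in fibroblast-like cells was 0.567% to 0.791% of its macrophage-like level, where the 10 macrophage markers had a median of 1.13% (0.278% to 43.3%), and in endothelial-like cells 5.17% to 5.79% beside a marker median of 6.89%. Dendritic-like cells differed, with C1q at 2.72% to 2.84% and the same markers at a median of 28.3%. Outside the 5 classes, C1qa stood at 122 CPM in the pericyte or smooth muscle-like cluster 22, where 191 of 194 C1q UMIs came from library 2, and at 137 CPM in the mast-like cluster 30, from 22 UMIs. Very few barcodes carried these levels, since C1qa was found in 2.78% of the 72 cells of cluster 22 and 3.23% of the 31 cells of cluster 30. Whether cells caught together or free RNA account for C1q outside macrophage-like cells was not tested.

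Every macrophage-like cluster held C1q, at levels that differed between clusters. C1qa was highest in cluster 3 (3637 CPM, 3559 to 3717) and cluster 1 (2953 CPM), both resident macrophage-like, with Ccl8 and Folr2 among their leading genes. It was lowest in cluster 5 (888 CPM, 855 to 923), led by Spp1 with the monocyte genes Ly6c2 and Plac8, and in cluster 9 (1102 CPM), led by Retnla and Lyz1. The resident name did not set the order, since cluster 8 bore it too, with Ccl8 and Folr2 among its leading genes. Its C1qa was 1644 CPM in library 1 and 1821 in library 2, below the inflammatory macrophage-like cluster 10 (2197 and 2389). All 3 chains were found in 247 of 257 thinned cells of cluster 3 and in 73 of 207 of cluster 5. Of the unnamed clusters whose best list was that of macrophages, cluster 11 lay within the C1qa range of the macrophage-like clusters and cluster 13 below it. C1qa was 1282 CPM in cluster 11, where markers of neutrophils scored nearly as high (3.02 against 3.11 on the log2 scale), and 357 CPM in cluster 13, where markers of dendritic cells came next (1.43 against 1.88).

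**Figure D3:**
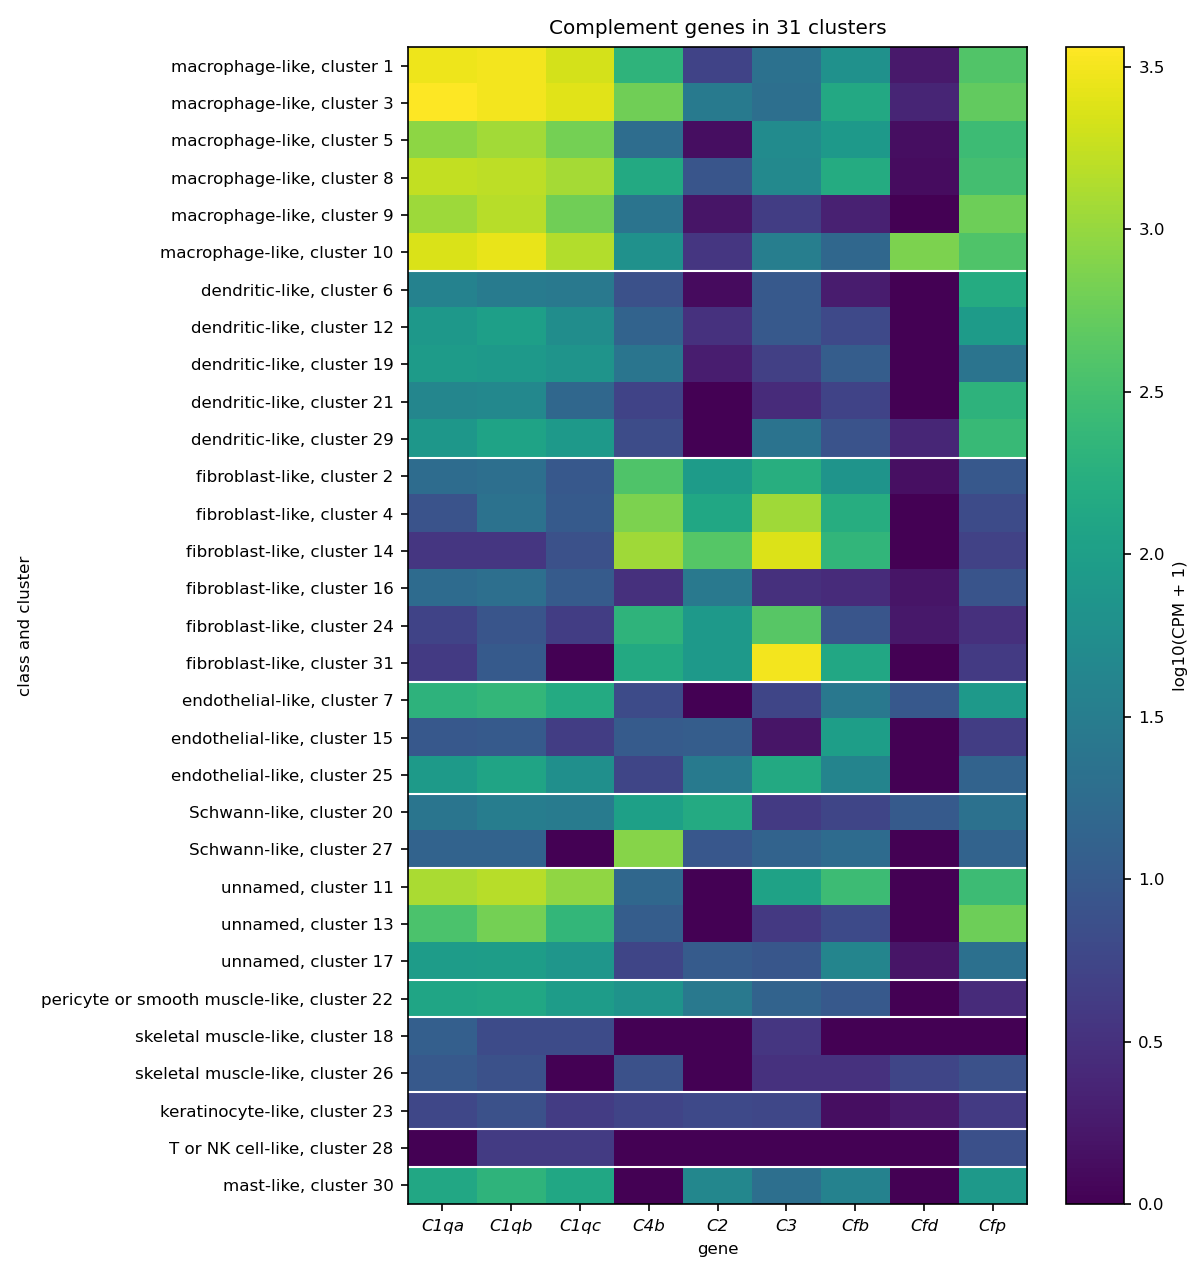
Level of the 9 genes (columns) in the 31 clusters (rows, grouped by class), as log10(CPM + 1). The C1q columns are bright in the macrophage-like rows and 2 unnamed rows, C3 in the fibroblast-like rows apart from cluster 16, and C4b in some rows of the fibroblast-like, macrophage-like and Schwann-like classes.

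C4b, the substrate that C1s cleaves, was shared by several kinds of cell. It stood at 373 CPM in fibroblast-like cells (362 to 383), 296 in Schwann-like cells (261 to 334) and 182 in macrophage-like cells (175 to 189), against 9.54 in dendritic-like and 6.92 in endothelial-like cells. No class led it 4-fold. The order of the first 2 classes depended on the library. C4b was 141 CPM in fibroblast-like cells of library 1 and 640 in those of library 2, while Schwann-like cells gave 290.3 and 301. Macrophage-like cells held 193 and 149 CPM.

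Each class held C4b in a subset of its clusters. Among macrophage-like clusters the resident cluster 3 reached 624 CPM (592 to 657) and cluster 1 reached 206, whereas clusters 5 and 9 stood at 18.0 and 22.3. Fibroblast markers in macrophage-like cells had a median of 0.477% of their fibroblast-like level (0.239% to 0.964%), while C4b there was 48.8% of its own. The same markers stood at 547 CPM in the 340 macrophage-like cells with 3 or more C4b UMIs and at 309 in the 728 without. Of the Schwann-like clusters, cluster 27 held 816 CPM of C4b (705 to 939), in 36 of its 50 cells, and cluster 20 held 105 CPM. Fibroblast markers summed to 1544 CPM in cluster 27 and 6385 CPM in cluster 20, against 82381 in all fibroblast-like cells. Between the clusters C4b and those markers ran in opposite order, but within each the cells with C4b held more of the markers. In cluster 27 the markers stood at 1737 CPM in the 36 cells with C4b and 868 in the 14 without, and in cluster 20 at 7415 and 5848. The cells with C4b were also deeper, with medians of 4056 against 2627.5 UMIs in cluster 27 and 9381.5 against 5527 in cluster 20. Over all Schwann-like cells the markers ran the other way. They stood at 3868 CPM in the 30 cells with 3 or more C4b UMIs and 5297 in the 71 without. The part of fibroblast RNA in the C4b level was not tested.

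C2, the protease that joins C4 in the C3-cleaving enzyme, was found at 111 CPM in Schwann-like cells (89.8 to 135) and 99.2 in fibroblast-like cells (94.0 to 105), an order that the intervals do not separate and that turned under several settings. Endothelial-like cells held 9.30 CPM, macrophage-like cells 7.43 and dendritic-like cells 0.644. The Schwann-like level came from few cells, since 10 of 125 cells held 88 of the 98 UMIs and cluster 20 held 148 CPM against 8.41 in cluster 27. The 10 Schwann-like cells with 3 or more C2 UMIs held fibroblast markers at 11318 CPM, against 3273 in the 107 without C2. Their median depths were 10358.5 and 4572 UMIs, and the part of fibroblast RNA in the C2 level was not tested. In the fibroblast-like class 447 of 824 cells held a C2 UMI, and cluster 14 had the highest level, 416 CPM (371 to 465).

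C3, on which all routes converge, was led by the fibroblast-like cells. It stood at 543 CPM there (531 to 556), 17.2-fold above macrophage-like cells (31.5 CPM), with endothelial-like cells at 29.6, dendritic-like cells at 8.12 and Schwann-like cells at 5.64. Thinned to 2000 UMIs, 311 of 778 fibroblast-like cells (39.97%, 36.5% to 43.5%) held a UMI of C3. The class was far from uniform. C3 reached 3103 CPM in cluster 31, led by Pi16, 2335 in cluster 14 and 1141 in cluster 4, both with Has1 and Clec3b among their leading genes, but 169 in cluster 2, led by collagen genes, and 2.08 (0.837 to 4.29) in cluster 16, led by Igfbp3. Cluster 16 also held 2.08 CPM of C4b and 1.78 of Cfb, the lowest of the fibroblast-like clusters for each.

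The C3 of endothelial-like cells lay in 1 cluster. Cluster 25, led by Ccl21a and Mmrn1 with Lyve1, genes of lymphatic vessels, held 143 CPM (119 to 171), and clusters 7 and 15 held 4.55 and 0.569. Libraries 1 and 2 gave 105 and 207 CPM in cluster 25. Few of its cells carried the level, since 10 of 56 held 109 of the 127 UMIs. Over the whole endothelial-like class, fibroblast markers had a median of 0.712% of their fibroblast-like level. That value is not specific to cluster 25, and the part of fibroblast RNA in its C3 level was not tested.

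Cfb, which forms the alternative C3-cleaving enzyme, was shared by macrophage-like, fibroblast-like and endothelial-like cells. Macrophage-like cells held 86.8 CPM (82.0 to 91.7), fibroblast-like cells 74.5 (70.0 to 79.3) and endothelial-like cells 55.8 (49.2 to 63.0), with Schwann-like cells at 7.90 and dendritic-like cells at 3.996. The order changed with the library, since fibroblast-like cells held 23.3 CPM in library 1 and 134 in library 2, while macrophage-like cells held 93.3 and 67.3. Within classes it was uneven. Cluster 8, resident macrophage-like with Ccl8, Folr2, Ly6c2 and Ms4a4c among its leading genes, stood at 155 CPM and cluster 9 at 1.14. The unnamed cluster 11, with the interferon-response genes Rsad2 and Irf7, had the highest level of all clusters, 271 CPM (245 to 299.5). Of the endothelial-like clusters, cluster 15, with Selp and Plvap, held 98.4 CPM, and its libraries were alike at 98.6 and 98.3.

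Cfd, the serine protease that cleaves factor B and a gene typical of fat cells, came almost entirely from 1 barcode. Of 1162 Cfd UMIs in kept cells, 1120 (96.4%) lay in a barcode of library 1 that clustered with macrophage-like cells (cluster 10), and 23 other cells shared 42 UMIs. The same barcode held 82 UMIs of Adipoq, 82 of Retn, 25 of Plin1 and 22 of Cidec, all known from adipocytes, where the other macrophage-like cells held 3, 5, 0 and 0 UMIs. It also held 371 UMIs of Cd74 and 145 of Lyz2, and 32392 UMIs in all, with a doublet score of 0.0871. With it, macrophage-like cells stood at 79.1 CPM and without it at 0.562 (0.243 to 1.11), below Schwann-like cells at 6.77 and endothelial-like cells at 3.68. In these, 1 cell held 5 of 6 and 15 of 17 UMIs. Cfd was therefore measured in few cells of any class.

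Cfp (properdin), a positive regulator of the cascade, was a gene of both myeloid classes. It stood at 389.7 CPM in macrophage-like cells (379 to 400.0) and 139 in dendritic-like cells (131 to 147), a 2.80-fold difference, with endothelial-like cells at 39.4, Schwann-like cells at 18.1 and fibroblast-like cells at 6.61. Libraries 1 and 2 gave 392 and 384 CPM in macrophage-like cells and 134 and 149 in dendritic-like cells. Its order within macrophage-like cells was not that of C1q. Cluster 9, among the lowest for C1q, was the highest for Cfp at 587 CPM (552 to 624), and the unnamed cluster 13 stood at 594. Among dendritic-like clusters it ran from 22.3 CPM in cluster 19 to 246 in cluster 29, whose leading genes are those of dividing cells.

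Over all members, 36 pairs of neighbouring classes were ordered by level. In 10 of them the interval of the log2 ratio included 0, and in 19 both libraries gave the same order. In 8 pairs the pooled interval left out 0 although the libraries did not give the same order, among them C4b between fibroblast-like and Schwann-like cells and Cfb between macrophage-like and fibroblast-like cells.

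Fibroblast-like cells of the libraries differed in several members. By a 2-fold limit either way, 3 of the 7 members with at least 100 UMIs there, C2, C4b and Cfb, were apart, beside 12.7% of 8424 genes. C2 was 46.1 CPM in library 1 and 160 in library 2, C4b 141 and 640, and Cfb 23.3 and 134, folds of 3.48, 4.54 and 5.73. C3 was 419.6 in library 1 and 685 in library 2, a fold of 1.63, but its log2 ratio of library 2 over library 1 turned from 0.71 to -1.0 with classes set cell by cell. The clusters were not equally filled, with 32 cells of library 1 and 196 of library 2 in cluster 4, 24 and 89 in cluster 14, and 58 and 2 in cluster 24.

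Within clusters the picture differed by gene. C4b was higher in library 2 in cluster 2 (189 against 518 CPM), cluster 4 (348 against 771) and cluster 14 (989.5 against 1197). C2 in cluster 2 was 11.2 CPM in library 1 and 141 in library 2, and Cfb 10.2 and 108, folds of 12.6 and 10.7. In cluster 4 the folds were 1.60 for C2 (86.3 against 138 CPM) and 1.54 for Cfb (111 against 172), with intervals that left out 0. Both intervals of the ratio in cluster 14 included 0. C3 had the higher pooled level in library 2, but in cluster 4 it was 2271 CPM in library 1 and 967 in library 2, and in cluster 14 it was 3325 and 1947. It was higher in library 2 in cluster 2, 59.5 against 243 CPM. With 1 library per age and suffixes tied to no age, age, mice and library preparation cannot be told apart.

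**Figure D4:**
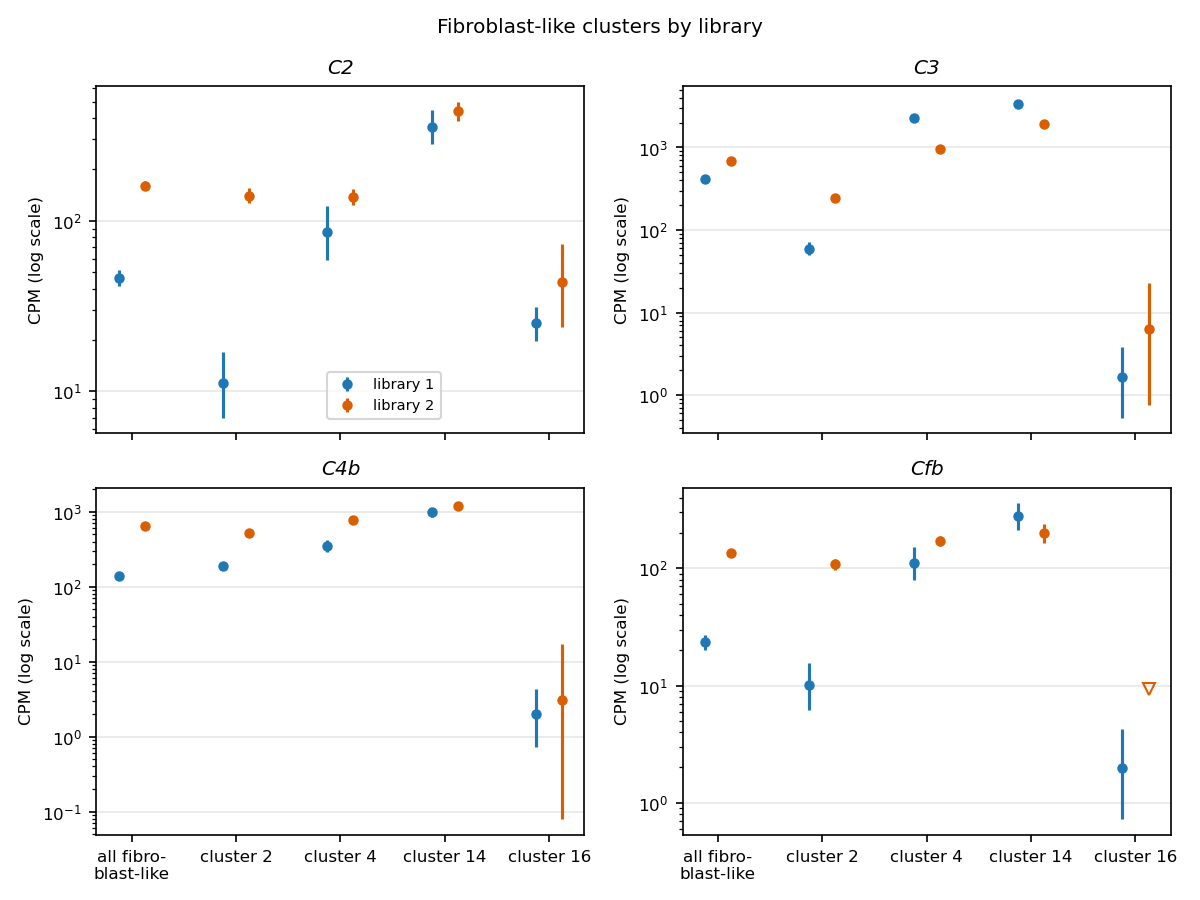
C2, C3, C4b and Cfb in CPM (log scale) in all fibroblast-like cells and in the 4 clusters with at least 20 cells of each library, for library 1 (blue) and library 2 (orange), with 95% counting intervals. The open triangle marks the limit of 3 counts. C4b lies higher in library 2 in clusters 2, 4 and 14, whereas C3 lies higher in library 1 in clusters 4 and 14.

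In macrophage-like cells 2 of 9 members, C2 and Cfd, were 2-fold apart, beside 1.61% of 7659 genes. C2 had 103 UMIs in library 1 (9.66 CPM) and 3 in library 2 (0.834 CPM), a log2 ratio of library 2 over library 1 of -3.53 (-5.84 to -1.95). Of these, 65 UMIs came from the resident cluster 3, where library 2 had none. Cfd had 1128 UMIs in library 1 and none in library 2 and differs by the barcode described above. In dendritic-like cells 1 of 4 members tested, C1qc, was apart, at 49.1 and 21.7 CPM, beside 1.66% of 5716 genes, and 10 cells held 79.4% of its UMIs. This difference was not stable, since C1qc was no longer apart under both other filters on cells, with 3000 variable genes, with classes set cell by cell, with the mean over cells or without cells of a high doublet score, where its log2 ratio was -0.046. C1qa there was 56.1 and 55.1 CPM.

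Endothelial-like cells, whose counts were added after the data were seen, had 4 of 6 members with at least 100 UMIs 2-fold apart, beside 3.09% of 5413 genes. C1qa was 168 CPM in library 1 and 39.2 in library 2, C1qb 168 and 77.1, C1qc 125 and 22.1, and Cfp 59.0 and 18.0. All of these were higher in library 1, which held 13 of the 16 endothelial-like cells with 10 or more C1q UMIs.

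The other genes of the pathway were taken from lists of 47 genes, of which 25 had at least 100 UMIs over the kept cells and 6 had none. With the libraries pooled, a class led 12 of the 25 genes 4-fold, beside 10.7% of the 11371 genes led by any class, and 8 of the 12 were led by the same class in each library. The lists were chosen with these data known, and nothing is read from that share. The proteases that C1q activates were low where C1q was high. C1ra stood at 248 CPM in fibroblast-like cells (240 to 257) and 7.64 (6.28 to 9.22) in macrophage-like cells, and C1s1 at 345 and 1.40 (0.857 to 2.17), although C1s1 was 3.69-fold above Schwann-like cells and so missed the limit. Within library 1 the C1s1 level was 1.13-fold above Schwann-like cells (157 against 140 CPM), and within library 2 it was 12.2-fold above them (561 against 46.0). Of the 5 early genes measured, fibroblast-like cells led C1ra, Masp1 of the lectin pathway (42.6 CPM) and the lectin Colec12 (99.4 CPM). Masp1 was led in each library, whereas C1ra was 2.70-fold above the next class in library 1 and 9.25-fold in library 2, and Colec12 2.16-fold and 5.94-fold. C7 of the lytic complex was led by fibroblast-like cells too, at 66.0 CPM against 0.216 in endothelial-like cells, whereas C6 stood at 30.1 CPM in macrophage-like and 18.7 in fibroblast-like cells.

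Of the receptors, C3ar1, C5ar1 and C5ar2 lay on the macrophage-like side. C5ar1, the receptor of C5a, stood at 599.7 CPM in macrophage-like cells and C3ar1, that of C3a, at 500.4, which was 20.4-fold and 14.9-fold above the next class, and C5ar2 at 24.6 CPM was led as well. These were 3 of the 10 receptors measured. Itgam and Itgb2, the chains of complement receptor 3, were at 219.9 and 287 CPM in macrophage-like and 84.0 and 235 in dendritic-like cells. Itgax went the other way, at 28.6 CPM in macrophage-like and 90.0 in dendritic-like cells, and Cd93 was highest in endothelial-like cells (513 CPM).

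Inhibitors were divided among classes. Serping1, the inhibitor of C1r and C1s, reached 1474 CPM in fibroblast-like cells and 380 in Schwann-like cells, a fold of 1.82 in library 1 and 9.62 in library 2. Of the 8 regulators measured, fibroblast-like cells led Cd55 (104 CPM, though 3.30-fold in library 1), endothelial-like cells Clu (279 CPM), and Schwann-like cells led 3. These were Cd59a, which blocks the lytic pore, at 437 CPM (394 to 482), Csmd1 at 99.3 and Vtn at 64.3, although Vtn measured 124 CPM in library 1 and 2.30 in library 2.

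**Figure D5:**
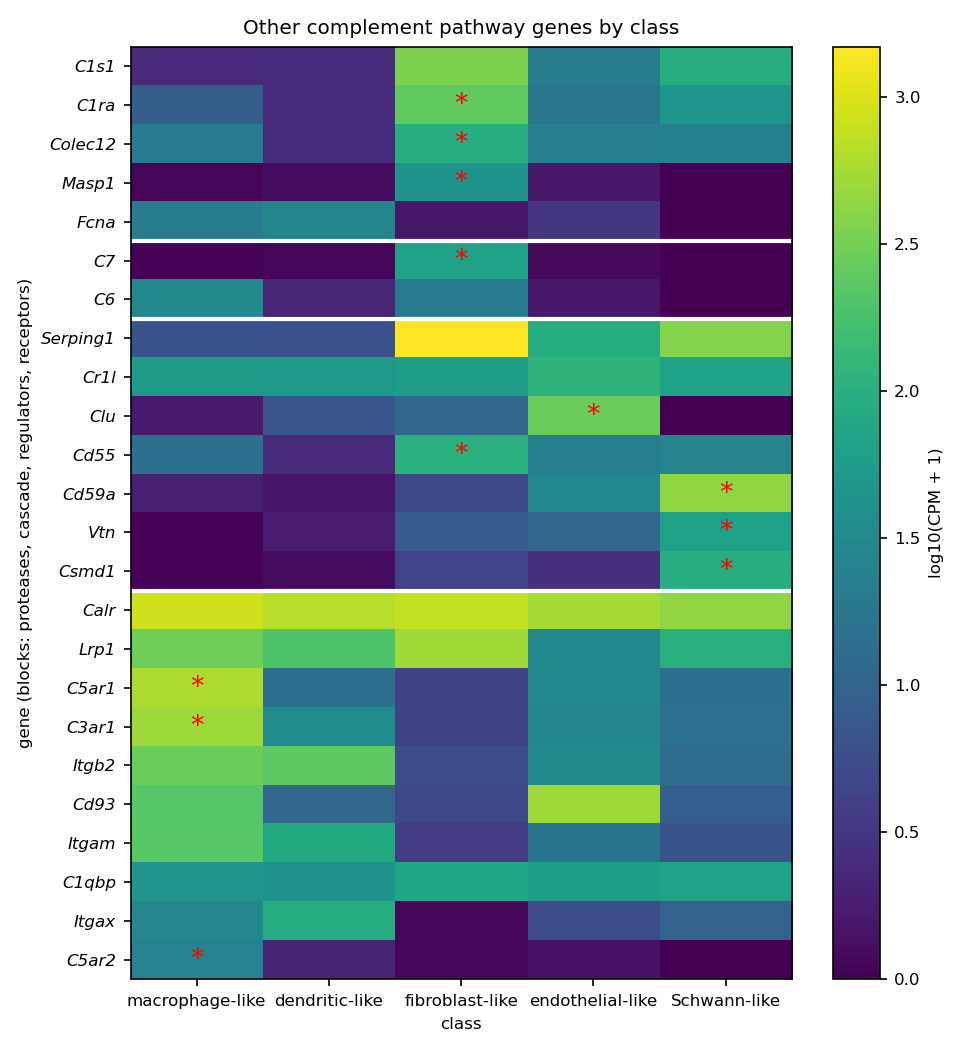
The plot holds 24 of the 25 other complement genes with at least 100 UMIs (rows, in blocks of proteases and recognition genes, cascade components, regulators and receptors) by class, as log10(CPM + 1). Red stars mark the 12 genes led 4-fold by a class, 5 in fibroblast-like, 3 in macrophage-like, 3 in Schwann-like and 1 in endothelial-like cells.

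For each member the genes with the most similar levels over the 31 clusters were sought among 12142 genes, by the Pearson correlation of log2(CPM + 10). The clusters share libraries and differ in depth, and the values describe likeness only. C1qa was nearest to C1qb (r = 0.993) and C1qc (r = 0.990), followed by C5ar1 (r = 0.969). Cfp was nearest to Itgam (r = 0.975), and its correlation with C1qa was 0.857. C2 was nearest to the fibroblast gene Dcn (r = 0.921), and C3 to Ifi205 (r = 0.903) and C7 (r = 0.885). Cfb was nearest to Ifi204 (r = 0.839) and Ifi211 (r = 0.819), genes induced by interferon, and C4b to Lpar1 at a lower likeness (r = 0.799). The nearest gene of Cfd was Ifnb1 (r = 0.962), a value that rests on the cluster with the single barcode.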

How the data were processed

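Droplet-based 3' libraries (v3.1 chemistry) were made from the sorted skin cells and sequenced on a HiSeq X, per the labels. The authors counted UMIs with Cell Ranger 4.0.0 on mm10, per the submitters' processing notes, and deposited both libraries as 1 matrix of raw counts without normalization. It holds 5257 barcodes, 35821853 UMIs of library 1 and 20382748 of library 2. Barcodes with at least 500 genes, 1000 UMIs and no more than 10% mitochondrial UMIs entered the analysis.

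With scanpy 1.11.5, each cell was scaled to 10000 UMIs and log-transformed, and 2000 variable genes, chosen without 56 complement genes, gave 30 principal components, 15 neighbours and 31 Leiden clusters at resolution 1. A cluster was named where at least 3 markers of a list were raised, the list led by 0.5 on the log2 scale, the next list reached less than 80% of its score, and no other list had more markers among the 10 leading genes. The naming rule followed a first look at the clusters, and 3 of them (348 cells) stayed unnamed. UMI sums per class were divided by class totals (CPM) with exact Poisson intervals, shares have Clopper-Pearson intervals, and ratios have exact intervals from the UMI sums. A count of 0 was given the limit of 3 counts. The calculation of ratios was tested on simulated counts. Since each age has 1 library and suffixes are tied to no age, no p-value was computed. The members, gene lists and rules were chosen with earlier results of these data known. Named genes were the members, the pathway genes with at least 100 UMIs, and the 3 genes most like each member, except marker and leading genes given to describe clusters or the Cfd barcode, and genes that overlap or nearly copy a member (C4a, Zbtb12, Gm20547), which were chosen after their values were seen. Gene positions are from GENCODE vM21 (GRCm38), matched by identifier. The values of 1 pathway gene are not reported here.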

Additional observations from a re-analysis of the deposited data

Results flagged for a closer look

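The barcodes removed by the filter on cells, 1460 in all, were not used in the comparisons but held UMIs of every member above the limit of 3 counts. C1qa stood at 257 CPM there (244 to 271) against 655 in all kept cells, C1qb at 202 and C1qc at 157. C4b reached 61.1 CPM, Cfp 41.6, C3 23.7, Cfb 18.1 and C2 17.6, each below its level over the kept cells. Cfd was at 9.81 CPM, with 53 UMIs in 14 barcodes. Over all kept cells, no member was higher in the removed barcodes. For Cfd, however, the kept level of 22.9 CPM rested on the 1 barcode with 1120 of 1162 UMIs. Without that barcode the kept cells held 42 Cfd UMIs in all, and Cfd was higher in the removed barcodes.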

How the results depend on the processing

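Alternatives changed the filter, the clustering, the classes, the library, the weighting, the doublets and the scaling, and 103 of 114 recomputed counts stayed within 1.5 times the reported ones. This tally compares the number of genes and not which genes they are, and a count of 0 that stays 0 passes. It therefore does not measure how stable the single genes are. Macrophage-like cells led C1qa, C1qb and C1qc under all of them. The looser filter and resolution 2 gave fibroblast-like cells 2 led members, C2 and C3. The count of members 2-fold apart between libraries fell to 0 in dendritic-like cells under both other filters, 3000 variable genes and the mean over cells, and was 2 without a minimum of UMIs. In macrophage-like cells it was 0 under the stricter filter, 1 with classes set per cell and 1 without the Cfd barcode, and in fibroblast-like cells 5 with the mean over cells. The settings that leave out the barcode or add the 2 unnamed clusters to the macrophage-like class were chosen after seeing the data.

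Some log2 ratios turned. For Cfb, macrophage-like over fibroblast-like, the value was -0.15 with 3000 variable genes, -0.99 in library 2 alone and -0.33 as the mean over cells, for C4b, fibroblast-like over Schwann-like, -1.04 in library 1 alone, and for Cfd, macrophage-like over Schwann-like, -0.40 with classes set per cell and -3.59 without the barcode. Between libraries, library 2 over library 1, C1qc in dendritic-like cells turned to 0.038 under the stricter filter, C3 in fibroblast-like cells to -1.0 with classes set per cell, and C1qa and C1qb there to -1.04 and -0.56 as the mean over cells. C2, Schwann-like over fibroblast-like, ranged from -3.36 to 1.85. The causes were not tested. No paired analysis was possible because each age has 1 library and no column is tied to a sample. Classes of few UMIs, such as the Schwann-like cells, limit what can be detected.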
